A study of Mus musculus with 2 samples.

Results

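Purinergic receptors and the ectonucleotidase CD39 were examined in eosinophils of mouse bone marrow. The 10 genes are 6 G protein-coupled P2Y receptors (P2ry1, P2ry2, P2ry6, P2ry12, P2ry13 and P2ry14), 3 ATP-gated P2X channels (P2rx1, P2rx4 and P2rx7) and Entpd1, which encodes CD39. They were chosen by gene symbol, with their levels in these tables already known, from the 23343 genes of the tables, and all 10 were found. Their levels are therefore a description. Poly(A) RNA was sequenced from cells sorted as CCR3+ and SiglecF+ in 2 independent runs of sorting, called sort 1 and sort 2. The cells came from pooled marrow of naive C57BL6J mice that received no treatment. Both libraries form 1 group, there is no second condition, and the sources used here give neither the number nor the age of the mice. The sorts differ in reads of sex-linked genes, given below, and spreads between them cannot be told apart from that difference. Bulk RNA cannot tell a change in the share of cells of a type from a change in RNA per cell.

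Extracellular nucleotides act as signals of damage and activation, and leukocytes read them through these receptors. P2Y receptors are metabotropic: P2Y2 is activated by ATP and UTP, P2Y6 by UDP, P2Y1, P2Y12 and P2Y13 by ADP, and P2Y14 by UDP-glucose and related UDP-sugars. P2X receptors are cation channels opened by ATP, of which P2X7 needs high concentrations and can drive the NLRP3 inflammasome. CD39 removes phosphates from ATP and ADP to leave AMP, which CD73 turns into adenosine, the ligand of a separate receptor family.

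Expression ran from a few high members through intermediate ones to a group close to zero. Values are RPKM, reads per kilobase of transcript and per 1000000 reads, which allow levels of different genes to be set side by side. Set against the reads in the tables instead, every level would be 4.01 times higher in sort 1 and 4.37 times higher in sort 2. A gene counted as detected where both sorts gave 1 RPKM or more. That was so for 6 of the 10 genes, beside 30.2% of all genes. P2rx1, P2ry14 and Entpd1 reached at least 10 RPKM in both sorts, which is 3 of 10 beside 5.55% of all genes. The median over the 10 genes was 4.26 RPKM in sort 1 and 3.22 in sort 2, and that over the 7048 detected genes was 4.07 and 3.97. Since the genes were named with their levels known, nothing is read from these shares.

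The sequences upstream of 3 expressed members and of the far start of P2ry14 are shown because they are DNA before annotated starts of the transcripts described here. They are RefSeq sequences of build GRCm38.p6, the same assembly as mm10, written 5′ to 3′ on the strand of the gene. The stretches of P2rx1, P2rx4 and P2ry14 end before the first annotated exon of the gene. That of Entpd1 ends before its deposited start. A second Entpd1 window, before another annotated start and not shown, lies 47428 bases upstream of the deposited start, at chr19:40612116-40612365. The end of the P2ry14 stretch lies inside F630111L10Rik, a noncoding transcript described below that starts at 59153628. Windows were matched for 9 of the 10 genes, and P2ry6 was not matched. The first is chr11:72998895-72999102 on the plus strand. The second is chr19:40659520-40659769 on the plus strand. The third is chr5:122707294-122707543 on the plus strand. The last is chr3:59153619-59153742 on the minus strand. Capitals mark AGATAA, a core sequence of GATA factor motifs, read on either strand, which among these stretches is in that of P2rx1.
P2rx1: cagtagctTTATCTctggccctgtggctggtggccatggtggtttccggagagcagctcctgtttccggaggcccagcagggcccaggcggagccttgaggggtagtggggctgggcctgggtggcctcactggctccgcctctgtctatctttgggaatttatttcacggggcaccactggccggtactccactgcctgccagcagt
Entpd1: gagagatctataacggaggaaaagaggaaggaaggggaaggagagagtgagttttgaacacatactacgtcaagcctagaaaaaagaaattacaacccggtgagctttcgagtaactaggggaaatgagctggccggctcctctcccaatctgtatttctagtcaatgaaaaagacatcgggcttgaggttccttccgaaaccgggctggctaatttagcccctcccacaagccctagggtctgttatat
P2rx4: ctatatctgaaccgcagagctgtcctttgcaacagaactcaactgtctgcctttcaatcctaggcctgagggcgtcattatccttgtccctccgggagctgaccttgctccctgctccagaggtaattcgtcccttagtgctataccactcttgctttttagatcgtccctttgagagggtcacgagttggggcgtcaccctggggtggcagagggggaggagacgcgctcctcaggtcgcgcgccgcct
P2ry14: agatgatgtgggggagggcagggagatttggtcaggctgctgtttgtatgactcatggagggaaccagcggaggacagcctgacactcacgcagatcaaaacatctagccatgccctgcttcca

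The windows differed in composition. A CpG ratio (observed over expected) of at least 0.6 with a GC content of at least 50% was found for 3 of the 9 windows nearest to the deposited starts, those of P2rx4, P2ry1 and P2ry2. That rule was met by 31.0% of all 32851 RefSeq windows. The window of P2rx1 had a CpG ratio of 0.256 and the nearest window of Entpd1 0.583. The more distant Entpd1 window had a ratio of 0.741 with a GC content of 62.4% and met the rule. Of the genes with a CpG-rich nearest window, P2rx4 and P2ry2 were detected and P2ry1 was not. Their share was near that of all windows, and nothing is read from it. AGATAA was present within the 250 bases before the start in 4 of the 15 windows of the members, beside 9.99% of all windows. These were the window of P2rx1, 2 of the 4 windows of P2ry14 and the more distant of the pair for P2rx7. The letters TTGCNNAA, a C/EBP core, were in 4 of 15 windows and in 9.56% of all windows. GAGGAAGT, a PU.1 core, was in 0 of 15 and in 2.44% of all windows. Both strands were searched, the motifs do not overlap each other here, and several windows of 1 gene are not independent. A match is a description of letters and not of binding.

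Among the P2Y receptors P2ry14 was the leading gene. It had 17.9 RPKM in sort 1 and 26.8 in sort 2, from 1274 and 1888 reads, a mean of 22.4 ± 6.24 (SD, n = 2). That mean lay above 97.6% of all genes. The receptor for UDP-glucose was thus 16.8 and 20.6 times as abundant per length as P2ry13 in the same sorts. P2ry2, the ATP and UTP receptor, followed with 7.46 and 5.14 RPKM (mean 6.30 ± 1.64, SD, n = 2). P2ry13, an ADP receptor coupled to inhibitory G proteins, had 1.07 and 1.30 RPKM from 109 and 133 reads, just above the detection minimum. These 3 of the 6 P2Y genes were detected.

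The remaining P2Y receptors were close to zero in both sorts. The median over all genes was also low, at 0.108 RPKM in sort 1 and 0.0896 in sort 2. Means of P2ry1, P2ry6 and P2ry12 lay above 55.2%, 52.1% and 51.2% of all genes. P2ry1, an ADP receptor known from platelets, had 0.178 and 0.317 RPKM from 28 and 50 reads. P2ry6, the UDP receptor, had 0.219 and 0.0899 RPKM from 17 and 7 reads. P2ry12, the ADP receptor that antiplatelet drugs target, had 0.127 and 0.137 RPKM from 12 and 13 reads. Reads were present for each, and exact 95% Poisson intervals for P2ry12 ran from 6.20 to 20.96 reads in sort 1 and from 6.92 to 22.2 in sort 2. Of the exonic bases of P2ry1, 23.1% also belong to an antisense gene in GENCODE. The strand setting of the counting is not known, so its few reads could come from either strand.

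Of the P2X channels P2rx1 stood highest and P2rx7 was low. P2rx1, a fast-desensitising channel also known from platelets and neutrophils, had 30.2 RPKM in sort 1 and 22.2 in sort 2, from 2983 and 2199 reads (mean 26.2 ± 5.65, SD, n = 2). Its mean lay above 98.04% of all genes. P2rx4, a channel found on the surface and in lysosomes, had 7.72 and 7.11 RPKM (mean 7.41 ± 0.434, SD, n = 2), and its values were close in both sorts. P2rx7, the channel linked to the inflammasome, had 0.227 and 0.470 RPKM from 35 and 50 reads. P2rx1 was 133 and 47.2 times and P2rx4 34.01 and 15.1 times as abundant per length as P2rx7. The deposited RPKM of P2rx7 combines 4 transcripts, and 1 RPKM stood for 154 reads in sort 1 and 106 in sort 2. Sort 2 thus had 2.07 times the RPKM of sort 1 but 1.43 times the reads, and the RPKM of P2rx7 is less certain than its low read count in both sorts.

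Entpd1 was a high member in both sorts. It had 19.2 RPKM in sort 1 and 21.7 in sort 2, from 3269 and 3690 reads (mean 20.4 ± 1.71, SD, n = 2). It was 174 and 157 times as abundant per length as Nt5e, the CD73 gene of the next step, which had 16 and 20 reads.

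**Figure D1:**
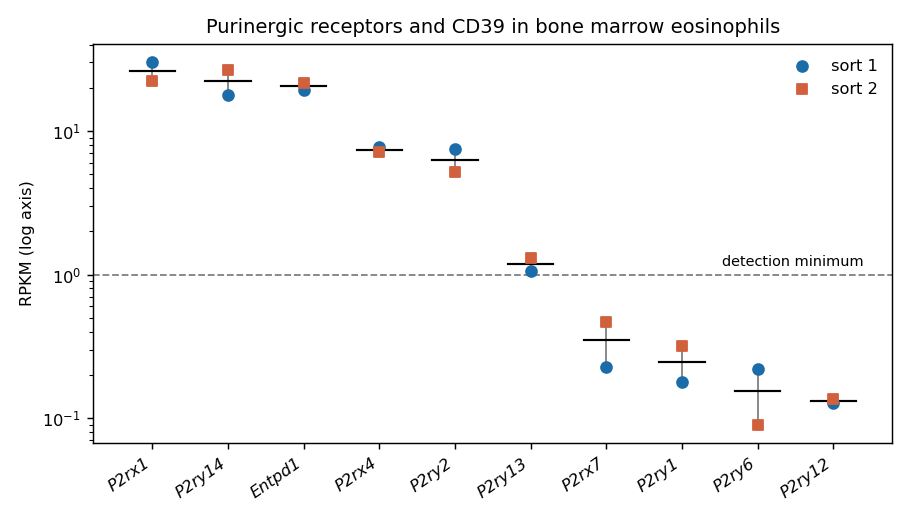
Deposited RPKM on a log axis for the 10 genes, ordered by mean. Circles are sort 1, squares sort 2, the short black lines are means of 2 sorts, and the dashed line is the detection minimum of 1 RPKM. The 3 genes on the left lie between 17.9 and 30.2 RPKM, and the 4 on the right lie between 0.0899 and 0.470.

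Ordered by mean level, the genes were split into tiers wherever the values of neighbours did not overlap between the sorts. The gaps between tiers follow from that rule. P2rx1, P2ry14 and Entpd1 overlapped: sort 1 had the order P2rx1, Entpd1, P2ry14, and sort 2 the order P2ry14, P2rx1, Entpd1. The lowest value of this tier, 17.9 RPKM, lay above the highest of the next, 7.72. P2rx4 and P2ry2 formed that next tier and overlapped, with P2rx4 the higher in each sort. P2ry13 lay alone between 1.07 and 1.30 RPKM. Values of P2rx7, P2ry1, P2ry6 and P2ry12 overlapped from each neighbour to the next. With 1 library per sort no test was made of these differences.

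Together the 15 P2Y and P2X genes in the tables summed to 74.8 RPKM in sort 1 and 77.4 in sort 2. P2ry14 took 24.0% and 34.6% of that sum (29.3 ± 7.47%, SD, n = 2), and P2rx1 took 40.4% and 28.6%. The sum of both shares was 64.3% and 63.2%. P2Y genes as a class held 45.0% and 56.3%, so the larger class differed between the sorts. In sort 2 the larger class depended on P2ry10, while in sort 1 P2X was the larger with or without it. P2ry10 took 8.94% and 12.7% and is a receptor of lysophosphatidylserine rather than of nucleotides. Among the other 14 genes P2Y held 39.6% and 49.9%, and P2X held 60.4% and 50.1%. The P2Y share was thus higher in sort 2 without P2ry10 as well, and the classes were close there.

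Members that are neighbours in the genome differed widely. P2ry14, P2ry13 and P2ry12 lie on the minus strand of chromosome 3 within Med12l, a Mediator subunit gene of the plus strand. On mm10 the deposited row of P2ry14 runs from 59114625 to 59130624, that of P2ry13 from 59207894 to 59210882 and that of P2ry12 from 59216271 to 59262831. P2ry13 and P2ry12 are 5.39 kb apart, and P2ry13 had 8.41 and 9.47 times the RPKM of P2ry12. Med12l had 0.257 and 0.300 RPKM, so P2ry14 was 69.8 and 89.2 times higher than the gene that spans it. Its exons share 9 bases with those of P2ry12 and none with P2ry13 or P2ry14. The receptor gene Gpr171 of the same cluster had 0.344 and 0.332 RPKM.

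A long transcript upstream of P2ry14 was about as abundant as P2ry14 itself. F630111L10Rik, an uncharacterised noncoding RNA in RefSeq, lies on the same strand from 59146296 to 59153628, 15.7 kb before the deposited start of P2ry14. It had 4980 and 6193 reads and 16.8 and 20.8 RPKM (mean 18.8 ± 2.85, SD, n = 2), which is 0.935 and 0.777 times the level of P2ry14. GENCODE M21 lists a retained-intron transcript of P2ry14 over this region. One of its 8 protein-coding P2ry14 transcripts begins inside it, at 59153492, with a first exon of 74 bases. That start is 136 bases from the start of F630111L10Rik and 22.9 kb from the deposited start of P2ry14, and the P2ry14 sequence shown above ends 127 bases before it. The AGATAA counted in that window lies in the 126 bases between, which are not shown and belong to the retained-intron transcript. The deposited row of P2ry14 does not reach this start. How many P2ry14 reads come from it was not tested, since the tables give 1 count for the gene.

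**Figure D2:**
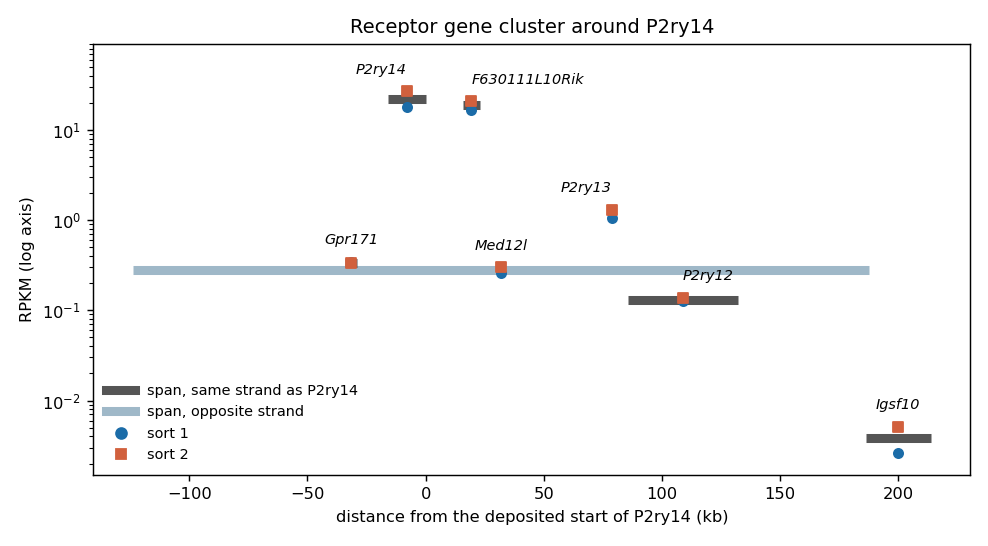
Genes around P2ry14, placed by distance in kb from its deposited start (x axis) and by RPKM on a log axis. Bars show each gene's span at its mean RPKM (dark, strand of P2ry14; light, opposite strand), circles sort 1 and squares sort 2. P2ry14 and F630111L10Rik stand at 16.8 to 26.8 RPKM, and every other gene drawn is at 1.30 or lower.

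Other neighbouring pairs were also unequal. P2ry2 and P2ry6 lie 32.2 kb apart on the minus strand of chromosome 7, from 100996572 to 101011991 and from 100937634 to 100964366, and P2ry2 had 34.1 and 57.1 times the RPKM of P2ry6. P2rx7 and P2rx4 lie 16.1 kb apart on the plus strand of chromosome 5, from 122643911 to 122691432 and from 122707557 to 122729042. P2rx1 lies on chromosome 11 from 72999145 to 73015197, between Atp2a3, the calcium pump gene, at 19.7 and 14.6 RPKM, and Camkk1, a kinase gene, at 2.24 and 1.96 RPKM. P2ry1 is on chromosome 3 from 61002795 to 61008979 and Entpd1 on chromosome 19 from 40659794 to 40741602, both on the plus strand.

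The difference between the sorts was within 2-fold for 9 of the 10 genes. Ratios of sort 2 to sort 1 were taken from read counts scaled by TMM, a scaling that centres the bulk of genes, with a prior count of 2, and their 95% intervals cover counting error only. P2ry6 was the 1 gene past 2-fold, beside 10.1% of 12347 genes with at least 10 reads. It was higher in sort 1, as 6.09% of those genes were past this fold, and it rests on 17 and 7 reads. Its log2 ratio was -1.02 with an interval from -2.73 to 0.13, so counting error alone covers no difference. For 5 genes the interval left out 0, 3 of them higher in sort 2, beside 25.0% of the tested genes, and 2 higher in sort 1, beside 24.7%. P2ry14 had a log2 ratio of 0.63 (0.53 to 0.74), P2ry1 0.85 (0.21 to 1.62) and Entpd1 0.24 (0.17 to 0.31), all higher in sort 2. P2rx1 had -0.38 (-0.46 to -0.30) and P2ry2 -0.47 (-0.62 to -0.32), both higher in sort 1. Ratios of P2rx4 (-0.05), P2rx7 (0.55), P2ry13 (0.35) and P2ry12 (0.15) had intervals that include 0. The biological coefficient of variation between the libraries, from the common dispersion of edgeR, was 23.2% over all genes tested.

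Other measures moved between the sorts along with these ratios. GC content of the transcripts was one: the 500 genes nearest in GC content to P2ry14 had a median log2 ratio of 0.21, and those nearest to P2ry2 had -0.27. Across the 10 genes, which share both libraries, the Spearman correlation of GC content with the log2 ratio was -0.71, and across 8680 genes with at least 100 reads it was -0.54. Relative to genes of like GC content the log2 ratio was 0.43 for P2ry14, 0.64 for P2ry1, 0.01 for Entpd1, -0.23 for P2rx1 and -0.20 for P2ry2. The ratio of Entpd1 was therefore close to the median of genes of its GC content. Sort 1 also held 47487 reads of Xist and sort 2 held 5, while Kdm5d of the Y chromosome had 0 and 756 reads. None of the 10 genes lies on a sex chromosome. The part of these sex-linked differences in the ratios was not tested. With 1 library per sort it cannot be told apart from other differences between the sorts.

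**Figure D3:**
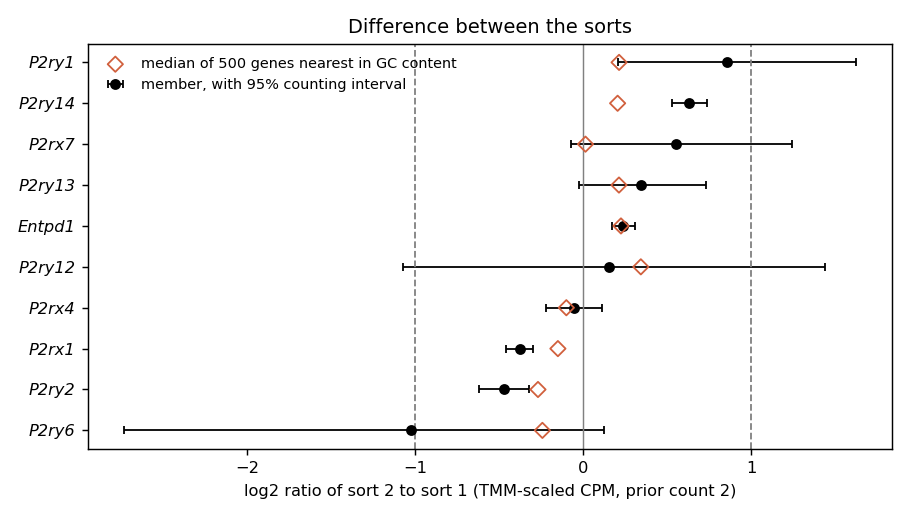
Log2 ratio of sort 2 to sort 1 for each gene (filled circles, bars are 95% counting intervals) and the median ratio of the 500 genes nearest in GC content (open diamonds). Dashed lines mark 2-fold. P2ry14 lies to the right of its diamond at 0.63 against 0.21, and Entpd1 lies on its diamond at 0.24 against 0.23.

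Markers of the sorted cells and of other cells were read beside these values. Eosinophil markers were detected for 9 of 9 genes, with summed RPKM of 3453 in sort 1 and 4298 in sort 2. Scaled counts were higher in sort 2 for all 9. Neutrophil markers were detected for 11 of 11, with sums of 878 and 683. Their scaled counts were higher in sort 1 for 7 and in sort 2 for 4, so the list did not move as one. Ngp, a granule protein gene, had 353 and 210 RPKM, while Mpo and Elane, granule enzymes made in early precursors, had 161 and 173 and 66.9 and 87.7. Monocyte and macrophage markers were detected for 7 of 13, with sums of 86.6 and 66.9. Of the 13, scaled counts were higher in sort 1 for 11 and in sort 2 for 2. The part of these cells in the levels and ratios of the members was not tested. Platelets and megakaryocytes use P2rx1, P2ry1 and P2ry12, and of their 10 markers only Itga2b, the integrin subunit, was detected. The sum of the 10 was 3.77 and 3.06 RPKM, Gp6 was at 0 in both sorts, and Ppbp had 0 and 2 reads. P2rx1 was 12.4 and 10.8 times as abundant per length as Itga2b, the highest of them. The part of platelets, megakaryocytes or neutrophils in the reads of P2rx1 was not tested. Of the 9 basophil and mast cell markers 5 were detected, with sums of 21.8 and 25.7, and Mcpt4 and Tpsb2 were at 0. B cell markers summed to 8.91 and 6.11 with 2 of 7 detected. T and NK cell markers (0 of 7), erythroid markers (0 of 6) and dendritic cell markers (1 of 6) summed to at most 2.15 RPKM in either sort. Of 8 endothelial and stromal markers only Pecam1, which leukocytes also express, was detected.

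The other genes of nucleotide signalling were taken from 10 lists drawn up by function, with earlier results of these data known. Detected were 61 of the 104 such genes present (58.7%), beside 30.2% of all genes, and nothing is read from this difference. In the receptor list 3 of 10 passed, a share close to that of all genes: P2ry10, a receptor of lysophosphatidylserine, with 6.68 and 9.82 RPKM, P2rx3, a channel known from sensory neurons, with 2.96 and 4.09, and Gpr34 with 1.17 and 2.96. P2ry4, P2rx2, P2rx6 and Gpr17 had no read in either sort. Of 4 adenosine receptors Adora3 alone was detected, with 34.8 and 36.1 RPKM, a value that sums 3 rows. The row of the transcript specific to the receptor had 24.9 and 25.9 RPKM, which is 0.825 and 1.17 times the level of P2rx1, so their order differed between the sorts. With all rows summed Adora3 was above P2rx1 by 1.15 and 1.63 times. Adora2a, the receptor that raises cyclic AMP in many leukocytes, had 26 and 20 reads.

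Enzymes outside the cell were few. Of 13 genes other than Entpd1 in the ectonucleotidase list, Acpp alone was detected, with 8.52 and 9.36 RPKM. That list also holds a peptidase and an ADP-ribosyltransferase. Acpp encodes a prostatic acid phosphatase that can also split AMP. Enpp3 had no read, and the related Entpd2, Entpd3 and Entpd8 had at most 7 reads in a sort. Adenosine handling was better represented with 8 of 10 detected, led by Ampd3, AMP deaminase, at 15.9 and 15.5 RPKM and Slc28a2, a nucleoside transporter, at 6.48 and 7.82. Of 5 intracellular ENTPD-type enzymes 3 were detected, with Entpd7 at 2.55 and 2.11.

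Release and synthesis of ligands could be followed as far as genes allow. Of 10 nucleotide release genes 4 passed, again near the share of all genes, led by Lrrc8d, a volume-regulated channel subunit, at 7.52 and 7.59 RPKM, while the pannexin Panx1 had 31 and 30 reads. For UDP-glucose, the ligand of P2Y14, 8 of 9 synthesis and use genes were detected. Ugcg, glucosylceramide synthase, had 17.7 and 15.03 RPKM, and Ugp2, which makes UDP-glucose, had 5.20 and 6.82.

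Signalling genes downstream of the receptors included abundant ones. Among 22 G protein subunits and effectors 17 were detected. The inhibitory subunit Gnai2, used by P2Y12, P2Y13 and P2Y14, had 85.8 and 75.3 RPKM, and Gnaq, used by P2Y1, P2Y2 and P2Y6, had 8.21 and 8.08. Plcb2, a phospholipase, had 54.2 and 45.0. Of 12 desensitisation genes 9 were detected, led by Rgs2 at 110 and 119 RPKM, and Rgs1 had 10.2 and 21.9. Among 9 inflammasome genes 7 passed the minimum, with Gsdmd, the pore protein, at 31.0 and 22.2 RPKM, while the sensor Nlrp3 had 6 and 19 reads.

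**Figure D4:**
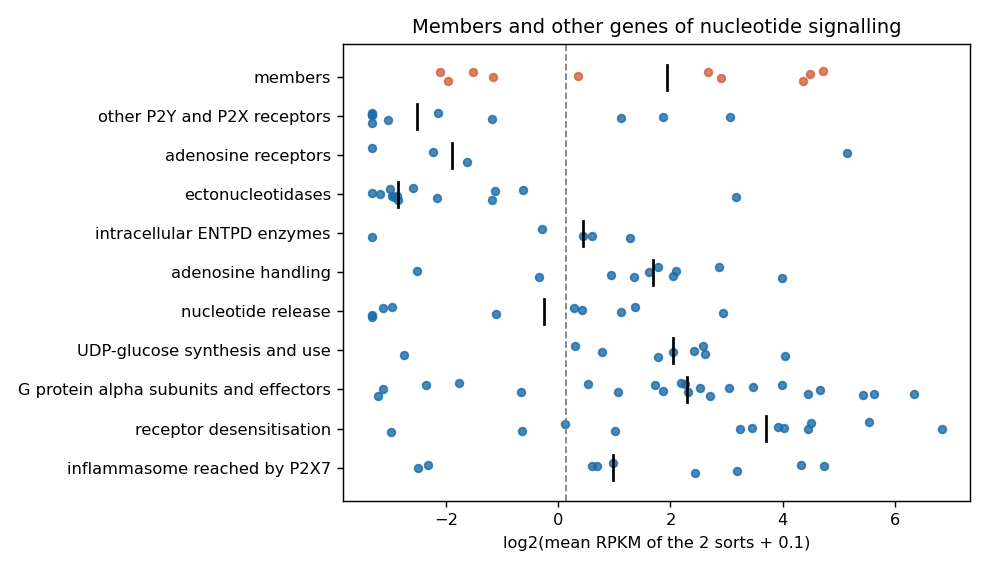
Log2 of mean RPKM plus 0.1 for the 10 members (top) and each gene of the 10 lists, with black lines at the medians and a dashed line at 1 RPKM. Adora3 and Acpp stand apart to the right of the other genes of the adenosine receptor and ectonucleotidase lists, most of which lie left of the line.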

How the data were processed

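Poly(A) RNA of 2 sorts was sequenced as stranded dUTP libraries, per the labels' protocols. Reads were aligned with STAR 2.4.0c to mm10, per the submitters' processing notes. The counting program and its strand setting are not stated there. Read counts, as deposited, are whole numbers per group of RefSeq transcripts. The authors also deposited RPKM values, whose divisor, inferred from counts and GENCODE M21 transcript lengths, was 40.4 and 40.5 in units of 1000000 reads. The tables held 10087743 and 9264150 reads, or 25.0% and 22.9% of it. Counting intervals treat reads as independent molecules, which they are not.

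Counts and RPKM were summed per symbol. All 10 members had 1 row each. TMM factors and the dispersion came from edgeR 4.0.16, and size factors as an alternative from DESeq2 1.42.0. No p-value was computed, because both libraries form 1 group. The ratio and its interval were tested on simulated data. Transcript lengths and GC content came from GENCODE M21, and upstream sequences from RefSeq.

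The members and lists were chosen with earlier results of these data known. The rule for named genes took all members, up to the 4 highest detected genes of each list, genes at or near 0 where a sentence needed them, and genes within 100 kb of a member. Of the last only some are described. Rgs1, Gnaq, Bst1, Adora2a, Panx1, Nt5e, Nlrp3, Prg3, Ssrp1, Xist and Kdm5d were named after their values were seen.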

Additional observations from a re-analysis of the deposited data

How the results depend on the processing

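The count of 6 detected members was 6 at a minimum of 0.5 RPKM (37.1% of all genes), 5 at 2 RPKM (22.1%) and 9 at a CPM of at least 1 (46.8%), and 3 at 10 RPKM (5.55%), a minimum added after the data were seen. It was 6 from either sort alone. The 61 detected pathway genes ranged from 61 to 63 from 1 sort. The share of P2ry14 among P2 receptors was 29.3% from RPKM, 21.6% from CPM, which favours long transcripts, and 24.0% to 34.6% from 1 sort. The 1 member past 2-fold, P2ry6, was lost, giving 0, with total counts, with at least 50 reads, with a prior count of 5 and with the GC correction, which was also added after the data were seen. At 1.5-fold there were 3 members, beside 26.1% of all genes. No direction of a ratio whose interval left out 0 was turned by another scaling, prior count, the deposited RPKM or the GC correction. Their sizes did change. The GC correction took the log2 ratios of P2ry14 (0.63 to 0.43) and P2ry2 (-0.47 to -0.20) outside their counting intervals. It did the same for P2rx1 (-0.38 to -0.23) and Entpd1 (0.24 to 0.01), and P2ry1 stayed within its interval. Scaling RPKM to the table totals raised every level 4.01-fold in sort 1 and 4.37-fold in sort 2. The means of P2rx7 and P2ry1 then passed 1 RPKM, at 1.48 and 1.05, and 6 members were at 1 RPKM or more in both sorts, beside 42.8% of all genes, a count added after the data were seen. No paired analysis was possible because all samples form 1 group. Precision is limited by 2 libraries and, for P2ry12 and P2ry6, by under 20 reads in each.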

Other observations

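P2rx3 lies on chromosome 2 from 84996552 to 85035834 on the minus strand, 2.67 kb from the end of Prg3 and 12.9 kb from that of Prg2, both eosinophil granule protein genes of the plus strand. Prg3 had 28.3 and 23.4 RPKM and Prg2 had 911 and 1339. P2rx3 had 503 and 696 reads, and the channel is known from sensory neurons. GENCODE exons of P2rx3 share 39 bases with Ssrp1 and none with Prg3. Whether its reads come from receptor transcripts was not tested, since the tables hold no exon counts.

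Of the 83 pathway genes with at least 10 reads, 7 (8.43%) were past 2-fold between the sorts, beside 10.1% of all genes tested. Those named here were chosen after their values were seen. Gpr34, a P2Y-like receptor of the X chromosome, had 90 and 228 reads and was 2.61-fold higher in sort 2, while the X-linked P2ry10 had 765 and 1127 reads and a log2 ratio of 0.62. Rgs1, a regulator of G protein signalling, was 2.24-fold higher in sort 2. The enzyme Bst1, a relative of CD38, had 82 reads in sort 1 and 22 in sort 2, a 3.36-fold difference. Its levels of 0.867 and 0.232 RPKM were below the detection minimum.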
